A study of Mus musculus with 3 samples.

Results

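The genes described here drive DNA replication and mitosis. They were chosen as a list of 37 symbols, 23 that act in S phase (the replication members) and 14 that act from late S phase through chromosome segregation (the mitosis members), out of 46316 gene symbols in the deposited tables. All 37 were found, on 96 transcript rows, and the row with the highest count over the 3 libraries stood for each gene. The libraries came from C2C12, an immortalised line of mouse myoblasts that fuse into multinucleate myotubes, and each was taken at day 4 of myogenic differentiation. There was 1 library of wild-type cells (WT), 1 labelled Drp1 knockout (KO), and 1 of knockout cells with transient expression of FLAG-Drp1 (rescue). Drp1 is a dynamin-related GTPase of mitochondrial fission. How the knockout was made, whether it is 1 clone, and what share of cells took up FLAG-Drp1 were not stated in the labels.

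Cells enter S phase when cyclins and their kinases, cyclin E among them, release E2F factors from the pocket proteins. E2F then turns on the genes that license, unwind and copy DNA. Genes of mitosis are turned on later through a promoter element called CHR, often beside the CCAAT boxes bound by NF-Y. A myoblast must leave the cell cycle before it fuses, and nuclei inside a myotube no longer replicate. Differentiated C2C12 cultures also hold mononucleate cells that have not fused. A bulk library cannot tell fewer cycling cells from less of these RNAs per cell.

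With 1 library per group there was no replicate and no test between groups, so each value describes these libraries. A counting interval is the exact 95% interval of a ratio from the read counts alone, and covers no variation between cultures. The libraries were alike in depth, with 13790401 to 13925292 gene counts each. Dnm1l, the gene of Drp1, had 1823 counts in the WT library, 1284 in the one labelled KO and 1481 in rescue, a log2 ratio of -0.48 in KO. Its RNA was thus still present in the library labelled KO, and these counts do not check that label. The 12 listed markers of myotubes were detected in each library, Acta1 with 61533 to 86717 counts and Myh1, the most variable, with 441 to 3941. Of macrophage and endothelial markers, Ptprc, Adgre1 and Pecam1 were at 0 in each library, and Csf1r, Cdh5 and Kdr had at most 3 counts. Cd68 was detected with 22 WT, 55 KO and 42 rescue counts, and Tek with 16, 7 and 11.

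Promoters are shown first because the phases are known to be switched on through different elements. RefSeq promoter sequences of build GRCm38.p6, from 250 bases before to 50 bases after a gene's start, matched 31 members, 19 of replication and 12 of mitosis. Ccne2, Mcm4, Gins1, Gins2, Ccna2 and Aurkb had no entry. The search covered 3 motifs on both strands. The E2F forms were TTTCCCGC, TTTCGCGC, TTTGCCGC and TTTGGCGC, the CHR was TTTGAA, and the NF-Y box was CCAAT. The 6 promoters printed next show the contrast, Orc1, Mcm6 and Mcm3 for replication and Cdc20, Kif11 and Cdk1 for mitosis. Capitals mark the E2F forms and the CHR or their reverse complements, and all runs read 5′ to 3′ toward the gene.

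Orc1 (chr4:108579204-108579503, plus strand): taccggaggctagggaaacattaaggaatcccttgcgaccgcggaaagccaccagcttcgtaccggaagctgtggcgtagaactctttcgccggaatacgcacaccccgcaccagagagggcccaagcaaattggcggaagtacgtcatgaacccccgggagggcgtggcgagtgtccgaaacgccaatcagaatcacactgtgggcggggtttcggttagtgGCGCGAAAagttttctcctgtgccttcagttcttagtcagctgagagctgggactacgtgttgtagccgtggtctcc

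Mcm6 (chr1:128359656-128359955, minus strand): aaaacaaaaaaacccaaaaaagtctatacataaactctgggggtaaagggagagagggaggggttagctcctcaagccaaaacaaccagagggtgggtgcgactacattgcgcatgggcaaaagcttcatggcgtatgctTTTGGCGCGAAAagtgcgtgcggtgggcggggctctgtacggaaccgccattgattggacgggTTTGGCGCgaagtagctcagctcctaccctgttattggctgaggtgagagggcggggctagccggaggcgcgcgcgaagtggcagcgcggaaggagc

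Mcm3 (chr1:20820263-20820562, minus strand): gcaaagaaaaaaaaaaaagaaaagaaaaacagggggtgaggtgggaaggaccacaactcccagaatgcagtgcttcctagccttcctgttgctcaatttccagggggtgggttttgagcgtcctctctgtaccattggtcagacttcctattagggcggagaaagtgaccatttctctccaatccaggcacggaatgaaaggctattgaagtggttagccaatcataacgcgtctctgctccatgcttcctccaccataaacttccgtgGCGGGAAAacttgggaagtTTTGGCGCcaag

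Cdc20 (chr4:118437294-118437593, minus strand): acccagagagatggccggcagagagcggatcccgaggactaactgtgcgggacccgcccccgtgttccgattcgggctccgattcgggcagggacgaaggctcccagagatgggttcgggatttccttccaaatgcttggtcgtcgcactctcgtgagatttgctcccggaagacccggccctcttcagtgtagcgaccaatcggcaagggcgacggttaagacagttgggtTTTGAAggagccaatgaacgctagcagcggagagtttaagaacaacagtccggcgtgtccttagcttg

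Kif11 (chr19:37376132-37376431, plus strand): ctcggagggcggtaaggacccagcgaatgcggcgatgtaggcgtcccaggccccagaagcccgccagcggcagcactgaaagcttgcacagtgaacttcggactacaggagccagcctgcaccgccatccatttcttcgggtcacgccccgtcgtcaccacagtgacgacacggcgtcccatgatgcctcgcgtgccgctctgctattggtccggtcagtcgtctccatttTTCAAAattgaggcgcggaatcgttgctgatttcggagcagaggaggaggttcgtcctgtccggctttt

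Cdk1 (chr10:69352863-69353162, minus strand): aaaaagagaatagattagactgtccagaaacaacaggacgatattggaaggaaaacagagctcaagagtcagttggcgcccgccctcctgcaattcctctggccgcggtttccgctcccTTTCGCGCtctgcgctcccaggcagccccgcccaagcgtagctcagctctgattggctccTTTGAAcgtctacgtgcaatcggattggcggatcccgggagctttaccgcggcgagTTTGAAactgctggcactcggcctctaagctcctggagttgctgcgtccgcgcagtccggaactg

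An E2F form was found in 8 of 19 replication promoters (42.1%) and in 1 of 12 mitosis promoters (8.33%), beside 2.32% of 27025 mouse promoters of the same length. The 8 were Orc1, Cdc6, Cdt1, Mcm3, Mcm5, Mcm6, Mcm7 and Pola1, and the mitosis gene was Cdk1. The CHR showed the reverse, in 9 of 12 mitosis promoters and in 2 of 19 replication promoters (10.5%), beside 18.1% of all promoters. The NF-Y box was common in both, in 11 of 12 mitosis and 13 of 19 replication promoters, beside 37.9% of all. Cdk1, the kinase that starts mitosis, was the member with an E2F form and a CHR. In Mcm6 and Mcm5 a pair of E2F forms on opposite strands shared 4 bases, and in Mcm7 an E2F form and an NF-Y box shared 1 base. A match is a run of letters and does not show that a factor binds there.

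**Figure D1:**
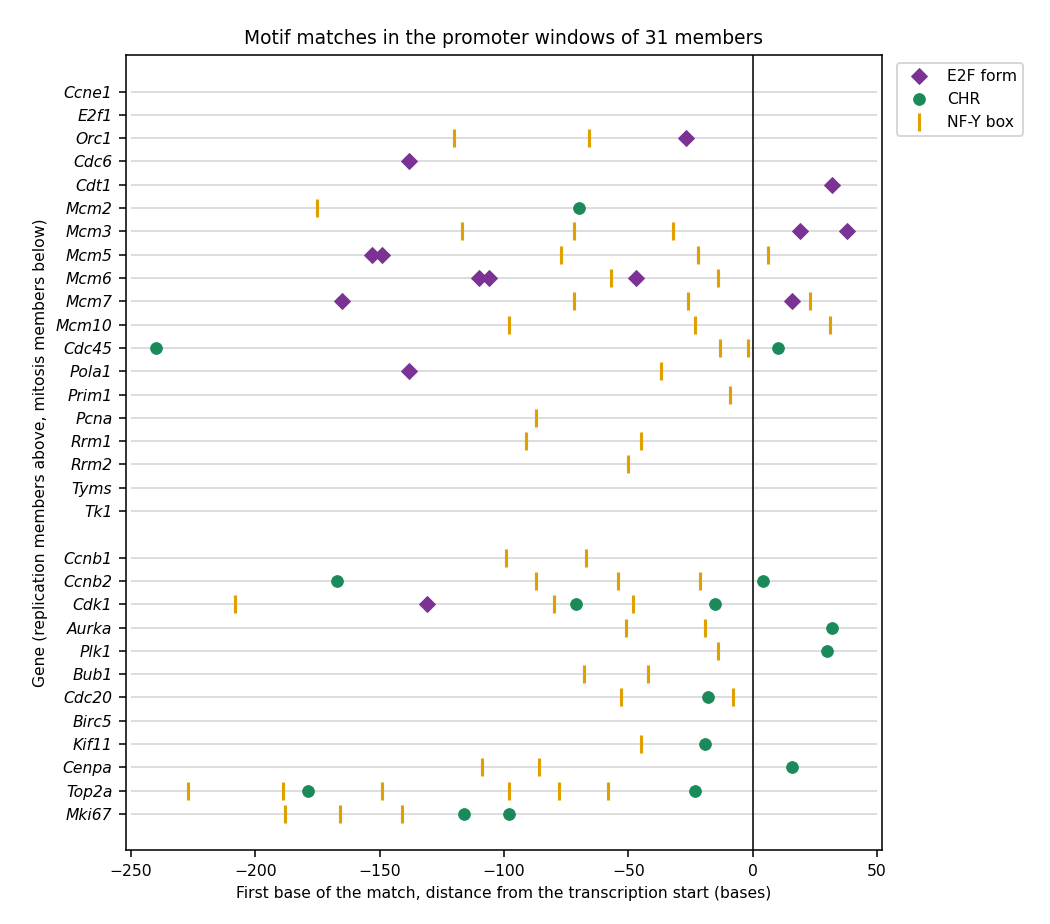
Motif matches in the promoter windows of the 31 members with a RefSeq promoter. The horizontal axis is the distance in bases of a match's first base from the transcription start and each grey line is 1 gene; diamonds (E2F forms) lie on 8 of 19 replication genes and circles (CHR) on 9 of 12 mitosis genes.

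Every member had fewer scaled counts in KO than in WT, beside 6681 of the 13382 genes tested. The median log2 ratio of KO to WT was -0.66 for the replication members and -0.47 for the mitosis members, while the median of the 13382 genes with a mean of at least 1 CPM (CPM being the usual count scaled to library size) was 0.00. All 37 members passed that filter. At 2-fold or more below WT were 5 members, all of them replication genes, beside 4.07% of all genes tested, and no member was 2-fold higher, beside 5.35%. Cdc6, at 2.07-fold, was just past that line and Mcm10, at 1.97-fold, just short of it. Of the 5, Ccne2, Orc1 and Gins1 have gene models that overlap another, so their counts are uncertain. At 1.5-fold or more below WT were 13 of 23 replication and 3 of 14 mitosis members, beside 10.4%. The counting interval lay wholly below equal for 21 replication and 12 mitosis members, 33 of 37, beside 29.3% of all genes.

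**Figure D2:**
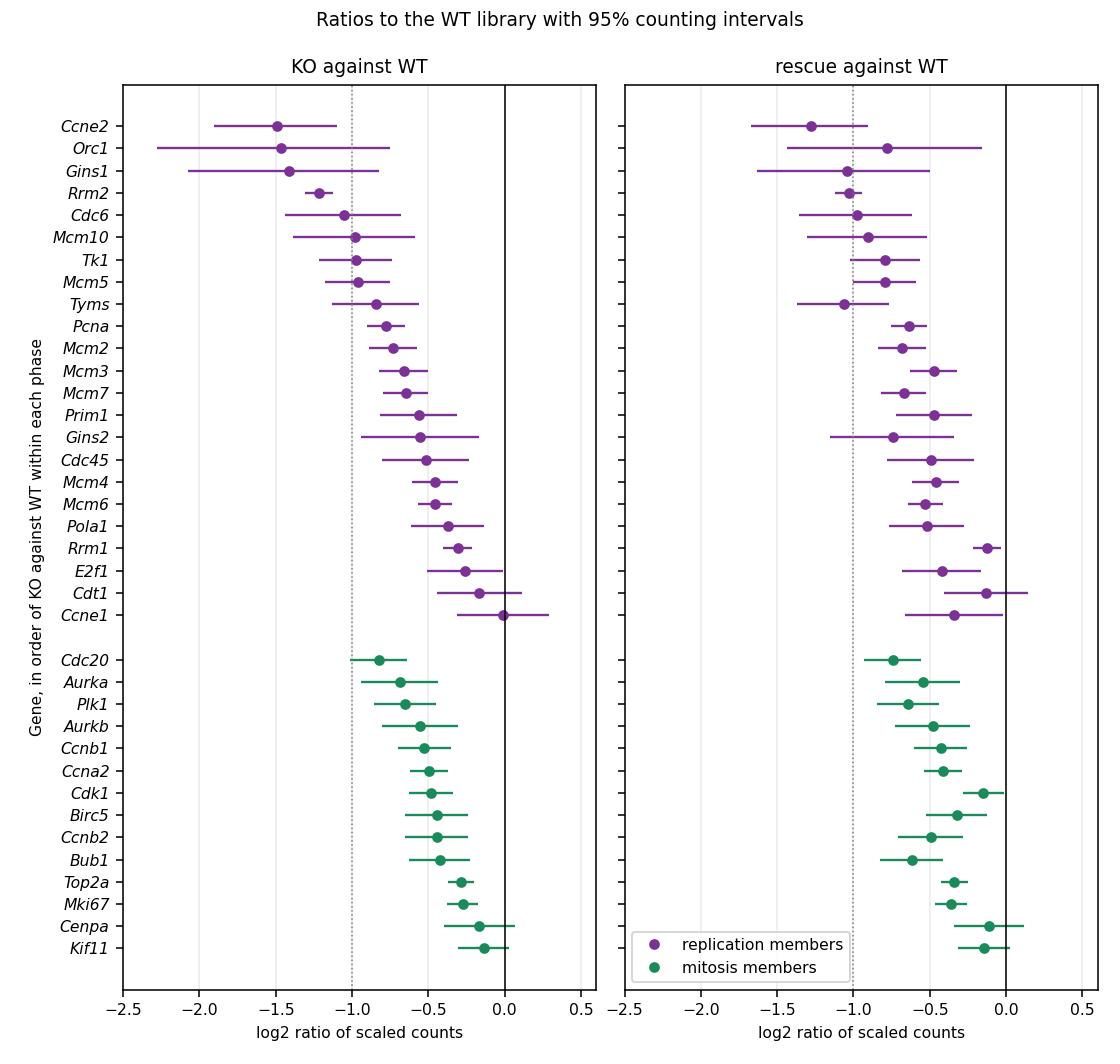
Log2 ratios of scaled counts to the WT library for the 37 members, in KO (left) and in rescue (right), with 1 library per group. Points are ratios, bars are 95% counting intervals, and the dotted line marks 2-fold lower; 5 points reach it in KO and 4 in rescue, none of them a mitosis gene.

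The cyclins of S phase entry differed from each other. Ccne2, cyclin E2, had 204 counts in WT against 71 in KO and 82 in rescue. It was 2.81-fold lower in KO (log2 ratio -1.49, interval -1.91 to -1.10), the lowest ratio of the 37. Ccne1, cyclin E1, had 188, 183 and 145 counts, and its ratio in KO was -0.01 (interval -0.31 to 0.29). Ccne2 counts were 1.09 times those of Ccne1 in WT, 0.388 times in KO and 0.566 times in rescue. That shift between WT and KO does not depend on how the libraries are scaled, and was -1.48 on the log2 scale. These cyclins have the lowest and the highest ratio of the replication members. All pairs of genes compared here and further on were chosen after their values were seen, so the shift of a pair is a description and its interval, where given, is no test. In rescue Ccne1 was below both other libraries, with a ratio of -0.33 to KO (interval -0.65 to -0.01). E2f1, an activator of the S phase programme, had 300, 246 and 219 counts, a ratio of -0.26 in KO and -0.42 in rescue.

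Of the genes that load the helicase at origins, Orc1 and Cdc6 were low in KO and Cdt1 was near WT. Orc1, the largest subunit of the origin recognition complex, had only 60 WT, 21 KO and 34 rescue counts, so its ratio of -1.47 has a wide interval (-2.28 to -0.75). Cdc6, the ATPase that joins it, had 186, 88 and 92 counts and was 2.07-fold lower in KO. Cdt1, which brings the MCM ring to the origin, had 234, 205 and 209 counts, a ratio of -0.16 with an interval of -0.44 to 0.11. Cdc6 counts were 0.795 times those of Cdt1 in WT and 0.429 times in KO (log2 shift -0.89, interval -1.36 to -0.42). Orc2, a subunit of the origin complex outside the list of members, had 710, 621 and 726 counts, and Orc1 shifted against it by -1.32 (interval -2.13 to -0.56). Orc2 was named after its values were seen.

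The MCM proteins include the 6 subunits of the replicative helicase, Mcm2 to Mcm7, and Mcm10, which helps to start it. All 7 were lower in KO with intervals below equal. Mcm5 had 539 WT, 272 KO and 304 rescue counts, and was 1.95-fold lower in KO. Mcm2 had 890, 526 and 543 counts and Mcm3 had 825, 512 and 580, which put them 1.66-fold and 1.58-fold lower in KO. Mcm7 had 993, 622 and 610 counts (1.57-fold lower). Mcm4 with 842, 603 and 598 counts and Mcm6 with 1542, 1105 and 1045 differed least, both at a ratio of -0.46. Mcm10 had 161, 80 and 84 counts and was 1.97-fold lower.

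The 6 helicase subunits act in equal numbers, but the estimated levels of their RNAs were not equal. Per kilobase of transcript, their levels in CPM spanned 11.1 (Mcm5) to 26.0 (Mcm7) in WT, 5.72 (Mcm5) to 18.1 (Mcm6) in KO and 6.43 (Mcm5) to 17.2 (Mcm6) in rescue. Such a level depends on the length of the row chosen for a gene, and the gene model of Mcm7 overlaps others. The order of levels between genes is therefore uncertain. Mcm5 was the lowest of the 6 in each library, and it had the lowest ratio of the 6 in KO (-0.96), while Mcm4 and Mcm6 had the highest. Summed over the 6, 5631 counts in WT compare with 3640 in KO and 3680 in rescue, log2 ratios of -0.60 and -0.58.

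Cdc45 and the GINS proteins join the MCM ring to make the active helicase. Gins1 had 85 counts in WT against 31 in KO and 40 in rescue, and was 2.67-fold lower in KO (interval of the log2 ratio -2.07 to -0.82). Gins2 had 142, 95 and 83 counts and Cdc45 had 255, 175 and 177, ratios of -0.55 and -0.52. The difference between Gins1 and Gins2 was -0.88 on the log2 scale, with an interval of -1.63 to -0.14. Transcript rows of Gins1 differed, the lowest holding 69.9% of the counts of the highest.

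Pcna, the sliding clamp of the polymerases, had 1443 WT, 826 KO and 908 rescue counts, and was 1.72-fold lower in KO. Per kilobase its level was 81.5 CPM in WT, and with 47.5 in KO and 52.4 in rescue it had the highest level of the replication members in those libraries. In WT that place was held by Rrm2, at 100.5 CPM per kilobase, against 43.3 in KO and 49.2 in rescue. Prim1, the primase subunit that starts each new strand, had 325, 216 and 229 counts. Pola1, the catalytic subunit of polymerase alpha, had 340, 258 and 232. Their ratios in KO were -0.56 and -0.37, both with intervals below equal.

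Enzymes of deoxynucleotide supply held the largest difference in reads. Rrm2, the small subunit of ribonucleotide reductase that is made in S phase, had 3081 WT, 1303 KO and 1474 rescue counts. It was 2.32-fold lower in KO (log2 ratio -1.22, interval -1.31 to -1.12), the only member whose interval lay wholly beyond 2-fold other than Ccne2. Rrm1, the large subunit, had 2034, 1616 and 1820 counts and a ratio of -0.31. Rrm2 counts were thus 1.51 times those of Rrm1 in WT, 0.806 times in KO and 0.810 times in rescue (log2 shift in KO -0.91, interval -1.04 to -0.78). Rrm2b, the p53-induced small subunit used outside S phase, went the other way with 568, 767 and 682 counts, a ratio of 0.46 (interval 0.30 to 0.62). It is not a member and was named after its values were seen. Tk1, thymidine kinase, had 432, 216 and 244 counts and a ratio of -0.97 in KO. Tyms, thymidylate synthase, had 287, 157 and 134 counts and was 1.79-fold lower in KO and 2.09-fold lower in rescue.

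**Figure D3:**
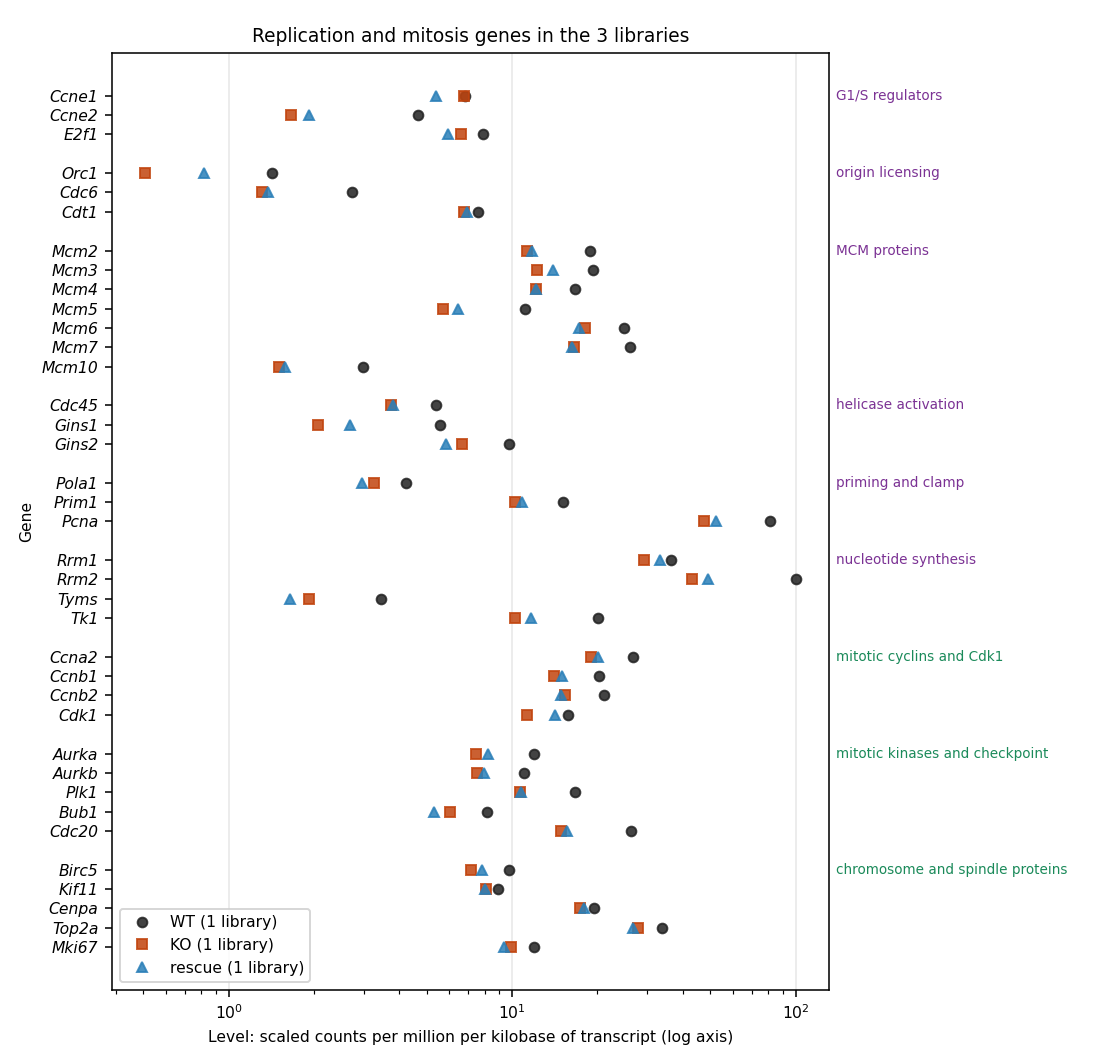
Level of each member in the 3 libraries, as scaled CPM per kilobase of transcript on a log axis, grouped by role. Each symbol is 1 library; WT lies to the right of KO for every gene, by little for Ccne1, Cdt1, Kif11 and Cenpa, and rescue mostly lies near KO.

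The mitotic cyclins and Cdk1 were lower in KO by near-equal amounts. Ccna2, cyclin A2, which serves S phase and early mitosis, had 1268 WT, 884 KO and 930 rescue counts. Ccnb1 had 658, 449 and 478 counts and Ccnb2 had 455, 328 and 316, the B cyclins that drive entry into mitosis. Cdk1 had 961, 675 and 847. The 4 ratios in KO lay between -0.53 and -0.45. Of these 4, Cdk1 had an interval above equal in rescue against KO and was 1.26-fold higher there (log2 ratio 0.33, interval 0.19 to 0.48).

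The lowest ratios of the mitosis members were those of Cdc20, Aurka and Plk1, which drive progress through mitosis. Cdc20, an activator of the anaphase-promoting complex, had 658 WT, 365 KO and 384 rescue counts and was 1.77-fold lower in KO (log2 ratio -0.82, interval -1.01 to -0.64). Aurka, a kinase of the spindle poles, had 348, 212 and 233 counts (1.61-fold lower). Plk1, a kinase needed at many steps of mitosis, had 520, 325 and 326 counts (1.57-fold lower). Aurkb, the kinase of the chromosomal passenger complex, had 338, 226 and 237 counts, and the checkpoint kinase Bub1 had 495, 362 and 315. Their ratios in KO were -0.55 and -0.43. Bub1 was at -0.62 in rescue against WT, and its interval in rescue against KO (-0.42 to 0.03) held equal.

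Among the mitosis members, proteins of chromosomes and spindle had the median ratio nearest to WT (-0.27). Kif11, the motor that pushes spindle poles apart, had 605 WT, 540 KO and 535 rescue counts, a ratio of -0.14 with an interval of -0.31 to 0.03. Cenpa, the histone H3 variant of centromeres, had 328, 287 and 297 counts, and its interval held equal too. Top2a, the topoisomerase that untangles chromosomes, had 2485, 2004 and 1922 counts (1.22-fold lower in KO). Mki67, the Ki-67 protein used to count cycling cells, had 1697, 1378 and 1292 counts (1.21-fold lower). Birc5, survivin, had 469, 338 and 366 counts and a ratio of -0.45. The ratios of the mitosis members in KO thus ran from -0.82 (Cdc20) to -0.14 (Kif11). Transcripts of Mki67, Top2a and Kif11, at 10075, 5233 and 4844 bases, were the longest of the mitosis members, and that of Cenpa, at 1201, the shortest. Ratios in KO rose with transcript length over all genes, as given further on. The part of length in the difference between these roles was not tested.

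The replication members lay further below WT than the mitosis members, and the ranges overlapped. The median difference between the phases was -0.20 on the log2 scale in KO and -0.25 in rescue. In KO, 9 of 23 replication members lay below Cdc20, the lowest mitosis member, 13 lay within the range of the mitosis members, and Ccne1 lay above it. Summed counts give a comparison that library scaling does not touch. The replication members held 15388 WT, 9427 KO and 9886 rescue counts, and the mitosis members 11285, 8373 and 8478. Their ratio was 1.36 in WT, 1.13 in KO and 1.17 in rescue, a log2 shift of -0.28 in KO (interval -0.33 to -0.22) and -0.23 in rescue (interval -0.28 to -0.17). Without the most abundant genes, Rrm1 and Rrm2 on one side and Top2a and Mki67 on the other, a choice made after the values were seen, the shift was -0.15 in KO (interval -0.22 to -0.08) and -0.21 in rescue. The wider lists of other replication and mitosis genes, described further on, had the opposite order in their summed counts. Their ratio was 0.596 in WT, 0.641 in KO and 0.670 in rescue, a log2 shift of 0.10 in KO (interval 0.07 to 0.14) and 0.17 in rescue (interval 0.13 to 0.21). In summed counts the order of the phases among the members was thus not that of the wider lists. The median ratios of the wider lists in KO were close, at -0.41 for replication and -0.42 for mitosis. At 2-fold lower in KO the wider lists had the order of the members, with 5 of 53 replication and 1 of 64 mitosis genes, beside 4.07% of all genes. The 8 replication members with an E2F form in the promoter had a median ratio of -0.66 in KO and the 11 without one -0.73. The 9 mitosis members with a CHR and the 3 without were both at -0.45.

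**Figure D4:**
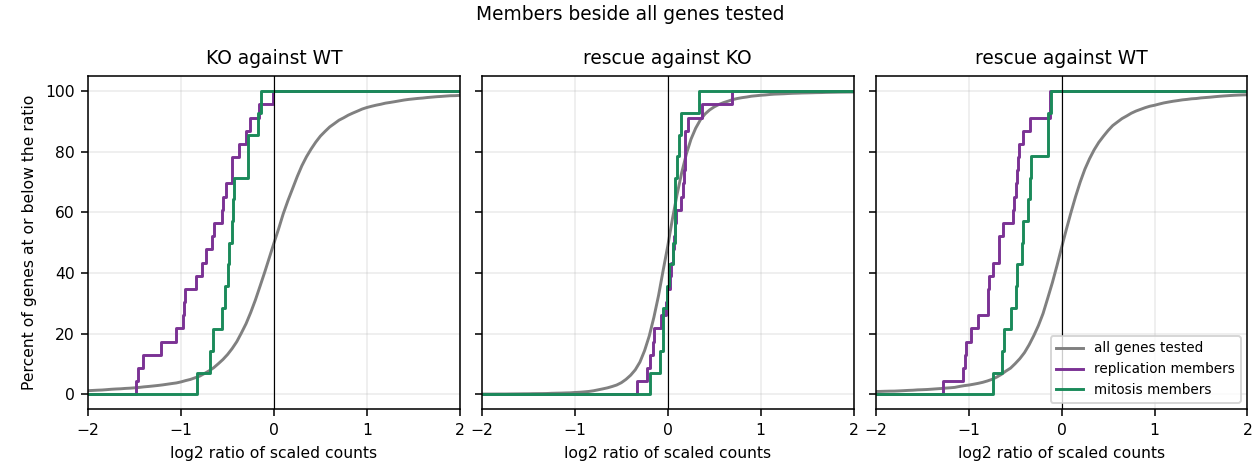
Cumulative share of genes by log2 ratio of scaled counts, for each pair of libraries. Grey is all 13382 genes tested, purple the 23 replication members and green the 14 mitosis members; against WT both coloured curves lie left of grey over most of their height, with medians of -0.66 and -0.47 in KO, and in rescue against KO they lie near grey.

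Most members were near their KO level in the rescue library, as were most genes. Within 1.5-fold of KO were 36 of 37 members and 12498 of the 13382 genes tested. In rescue against KO the median log2 ratio was 0.07 for both phases, and 0.01 over all genes. No member was 2-fold higher, beside 1.31% of all genes, and Orc1 alone reached 1.5-fold higher, beside 3.85%. Its interval, -0.12 to 1.56, held equal. The counting interval lay above equal for Mcm3, Pcna, Rrm1, Rrm2 and Cdk1, 5 of 37, beside 18.1% of all genes, and below equal for Ccne1 alone, beside 17.3%. The largest of these ratios was that of Cdk1, at 0.33, and Rrm1 and Rrm2 were at 0.18 and 0.19. This comparison shares the KO library with that of KO against WT.

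Against WT, the rescue library had the same 37 members below 0, beside 6488 of the 13382 genes tested. Of the members, 34 had the interval below equal, beside 25.1% of all genes. At 2-fold lower were Ccne2 (2.42-fold), Tyms (2.09-fold), Gins1 (2.06-fold) and Rrm2 (2.04-fold), 4 of 37 beside 3.02%. At 1.5-fold lower were 13 replication and 3 mitosis members, beside 7.94%. Medians were -0.67 for replication and -0.42 for mitosis, beside 0.01 over all genes. Rrm1, with a ratio of -0.13, and Cdk1, with -0.15, were closer to WT in rescue than in KO, where they stood at -0.31 and -0.48. Both comparisons with WT use the same WT library.

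Other genes of the same processes, from lists of 53 replication and 64 mitosis genes, were mostly lower in KO too. Their median ratios were -0.41 and -0.42 in KO and -0.26 and -0.39 in rescue against WT. In KO, 29 of 53 and 47 of 64 intervals lay below equal, beside 29.3% of all genes, and 3 and 0 above, beside 29.0%. Summed counts gave log2 ratios in KO of -0.29 for the replication list and -0.39 for the mitosis list, and -0.18 and -0.35 in rescue against WT. At 2-fold lower in KO were 5 of 53 replication genes and 1 of 64 mitosis genes, beside 4.07% of all genes. Asf1b, a histone chaperone of replication forks, had 274 WT, 108 KO and 127 rescue counts (2.49-fold lower in KO). Clspn, claspin of the fork checkpoint, had 226, 105 and 108, and Rpa2, a subunit of the protein that coats single-stranded DNA, had 316, 151 and 225. Rpa2 stood between KO and WT in rescue, while Asf1b and Clspn were near KO. Melk, a mitotic kinase, had 271, 127 and 146 counts, and Kif2c, a kinesin of the centromere, had 410, 206 and 253. Cdca3 had 349, 180 and 190, and Spc25, of the kinetochore, had 269, 142 and 179.

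Replication-coupled histone genes are made in S phase, mostly without a poly(A) tail, and their near-identical copies make counts per gene uncertain. Summed over the 62 genes found, they had 1732 WT, 966 KO and 1275 rescue counts, 1.76-fold lower in KO (log2 ratio -0.82, interval -0.93 to -0.70) and 1.33-fold higher in rescue than in KO (0.41, interval 0.29 to 0.53). Of the 62, 11 passed the filter, and H2ac22 and H2bc1 were at 0. H2bc4 had 247, 99 and 149 counts. H1f2, a linker histone, had 568, 424 and 577 counts.

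Genes that control entry into the cycle had a median ratio of -0.21 in KO. Of 33 listed, 29 passed the filter, with 16 intervals below equal in KO, beside 29.3% of all genes, and 6 above, beside 29.0%. E2f2, an activator E2F, had 1578 WT, 679 KO and 743 rescue counts and was 2.28-fold lower in KO. Cdk6, a partner of D cyclins, had 2707, 1329 and 1240 counts, and Cdkn2c, an inhibitor of Cdk4 and Cdk6, had 348, 140 and 186. Ccnd2, cyclin D2, was 1.87-fold higher in KO, with 1195, 2200 and 1654 counts. Cyclin D1 went the other way: Ccnd1, named after its values were seen, had 1696, 1000 and 945 counts and was 1.67-fold lower in KO. Cdkn1a, the CDK inhibitor p21 that myoblasts induce on leaving the cycle, had 21758, 13468 and 16422 counts (named after its values were seen).

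Markers of unfused or other cells differed between the libraries as well. The 10 myoblast markers summed to 4010 WT, 2814 KO and 2876 rescue counts, with Pax7 at 3, 8 and 4 counts. In KO, Heyl, Id2, Myf5, Myod1 and Hey1 had intervals below equal, and Id1, Sphk1 and Cd34 above, 5 and 3 of 9 that passed the filter. The 7 markers of fibroblasts summed to 11344, 23628 and 20475 counts, of which Col1a1 alone held 5243, 18763 and 16217. Pdgfra and Pdgfrb were also higher in KO, and Dcn was lower. Lum had 9, 0 and 1 counts, Thy1 had 0, 1 and 0, and Tcf21 was at 0. The 4 macrophage markers summed to 23, 58 and 42 counts, most of them from Cd68, whose interval lay above equal in KO. The 4 endothelial markers summed to 18, 8 and 11. The 12 myotube markers summed to 263862, 251870 and 318077, and 8 had intervals below equal in KO and 3 above. Over all genes these shares were 29.3% and 29.0%. The part of these cell states in the members' ratios was not tested. KO also differed by transcript length: genes of the shortest length decile had a median log2 ratio of -0.21 and those of the longest 0.19. The median length was 3031 bases for replication members and 2846 for mitosis members, and with the length trend removed the KO medians were -0.62 and -0.46.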

How the data were processed

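RNA-seq was measured in 3 C2C12 libraries, 1 per group, by the genotype labels. RNA was extracted with TRIzol, per the labels' protocols. Reads were handled with HISAT2 2.2.1, featureCounts 2.0.0 and cutadapt 1.9.1 and build GRCm39, per the submitters' processing notes. Their settings, strandedness and the treatment of multi-mapping reads: not given in the sources used here. The deposited count column holds whole read counts per transcript without normalization (per the file headers). The deposited RPKM and TPM columns were recomputed from counts and lengths, differed by at most 4.98e-06 and 4.40e-06, and were not used further. Rows of a gene mostly count the same reads: of the 20 members with several rows, 15 had a lowest row of at least 90% of the highest, the exceptions being Gins1, Pola1, Tyms, Tk1 and Birc5. Gene models of 14 members overlap another in RefSeq GRCm38.p6 (Ccne2, E2f1, Orc1, Mcm7, Cdc45, Gins1, Gins2, Pola1, Tk1, Ccna2, Aurka, Cdc20, Kif11 and Top2a), so their counts are uncertain.

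Libraries were scaled by TMM (edgeR 4.0.16; factors 1.01, 1.00 and 0.987 for WT, KO and rescue) in R 4.3.3, with 13894134, 13790401 and 13925292 gene counts. Log2 ratios used 0.5 added counts and genes with a mean of at least 1 CPM. Intervals are exact conditional (Clopper-Pearson) at 95%; shifts between a pair of genes use the exact conditional odds ratio. Both cover counting error only, with each read taken as independent. Reads lacking molecular identifiers can be copies of the same molecule, so the intervals can be too narrow. The interval code was tested on simulated data. Members, lists and rules were chosen with earlier results of these data known. All members are reported, with up to 4 genes of other lists that had the largest ratios in KO and at least 200 counts, and markers. Alternatives changed scaling (DESeq2 1.42.0 size factors or totals), rows, filter, pseudocount and length trend.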

Additional observations from a re-analysis of the deposited data

How the results depend on the processing

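All 37 members stayed below WT in KO and in rescue under 9 other settings, except that Ccne1 was above 0 in KO (0.07) with the length trend removed, and members that a stricter filter or summed rows took out of the fit (2 and 1). The number at 2-fold lower in KO was 3 in place of 5 with a mean CPM of 5 required, since Orc1 and Gins1 were then not tested. It was 4 with summed rows, where Orc1 was not tested. Replication medians in KO lay between -0.68 and -0.62 and mitosis medians between -0.49 and -0.46, and the difference between them between -0.20 and -0.16. In rescue against KO, where the ratios were small, removing the length trend changed the sign of 10 of 37 members, and medians were 0.02 and 0.03 in place of 0.07. Leaving out the most abundant genes (Rrm1, Rrm2, Top2a and Mki67), an alternative chosen after seeing the data, gave a shift of replication against mitosis counts of -0.15 in KO against WT, -0.21 in rescue against WT and -0.058 in rescue against KO. For promoters, in the last 100 bases before the start and 50 after, E2F forms were in 5 of 19 replication and 0 of 12 mitosis members, beside 1.26% of all promoters. With 7-letter forms they were in 11 of 19 (57.9%) and 3 of 12, beside 9.69% of all, against 2.32% for the 8-letter forms. No paired analysis was possible because there was 1 library per group. Orc1, Gins1, Ccne2 and Mcm10 have few counts, which limits their ratios.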
